A study of Saccharomyces cerevisiae with 6 samples.

Results

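The decapping enzyme Dcp2 was targeted for depletion in budding yeast (Saccharomyces cerevisiae), and the level and the poly(A) tail length of each messenger RNA were set against those of wild-type cells. The comparison used 4 of the 6 libraries of the series, those labelled as Dcp2 degron and as wild type, with 2 replicates each, and covered all 4909 listed genes for level. Tail length was compared over the 4054 genes with 20 or more reads in each of these 4 libraries. The remaining 2 libraries, from a Ccr4/Pop2 degron strain, entered the model for the shared spread between replicates and for a direct contrast.

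The Dcp2 degron strain LMA5574 is a BY4741 derivative of mating type a in which DCP2 carries a polyG-3Flag-AID tag with kanMX, where AID is the auxin-inducible degron. It also carries the alleles TAO3_E1493Q and RME1 insert A -308. A construct at trp1-1, with TRP1, supplies the estradiol-driven Z3EV activator and TIR, the plant receptor that hands an AID-tagged protein to the proteasome when auxin is present. The wild type was BY4741 (leu2Δ0 his3Δ1 ura3Δ0 met15Δ0, mating type a) without these alleles, so the strain background and the loss of Dcp2 cannot be told apart in this comparison. The Ccr4/Pop2 degron strain LMA5601 has the background of the Dcp2 strain, with AID tags on CCR4 and CAF1 in place of the one on DCP2. All cultures grew exponentially at 30 °C in the rich medium YPD to an OD600 of 0.4, and were kept for 1 h with 1 µM β-estradiol and 100 µM IAA, an auxin, the wild type included.

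In yeast most mRNAs are degraded after their poly(A) tail has been shortened: Dcp2, with its partner Dcp1, removes the 5′ cap, and the exonuclease Xrn1 then digests the body from the 5′ end. Activators such as Pat1, Dhh1, the Lsm1 to Lsm7 ring, Edc3 and Scd6 recruit or stimulate Dcp2, and nonsense-mediated decay feeds transcripts with premature stop codons into the same step. An mRNA that has been deadenylated but cannot be decapped can persist with a short tail. Nanopore direct RNA sequencing reads native molecules from the tail inwards, so each read gives both the gene and an estimate of tail length.

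The sequences below are promoters of 2 genes called higher and 2 called lower, read from the R64 (sacCer3) genome from 250 bases before to 50 after the coding start. HSP12 and RTC3 are general stress genes that rose, and capitals mark the stress response element AGGGG or its reverse complement CCCCT. ECM16 and NUG1 are ribosome biogenesis genes that fell, and capitals mark the PAC motif GATGAG and the RRPE motif AAAATTT, on either strand; overlapping matches run together. The RTC3 promoter also holds 1 GATGAG, left in lower case because only the stress element was marked in that pair. A match is a description of the letters and not a binding site.
HSP12 (chrVI:107006-107305, plus strand): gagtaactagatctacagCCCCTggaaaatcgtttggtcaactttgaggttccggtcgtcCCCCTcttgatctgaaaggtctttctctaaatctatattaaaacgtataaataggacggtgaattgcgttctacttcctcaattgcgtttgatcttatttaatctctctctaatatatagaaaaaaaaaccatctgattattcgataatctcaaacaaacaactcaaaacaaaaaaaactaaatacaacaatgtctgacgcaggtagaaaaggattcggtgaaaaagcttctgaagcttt
RTC3 (chrVIII:280570-280869, plus strand): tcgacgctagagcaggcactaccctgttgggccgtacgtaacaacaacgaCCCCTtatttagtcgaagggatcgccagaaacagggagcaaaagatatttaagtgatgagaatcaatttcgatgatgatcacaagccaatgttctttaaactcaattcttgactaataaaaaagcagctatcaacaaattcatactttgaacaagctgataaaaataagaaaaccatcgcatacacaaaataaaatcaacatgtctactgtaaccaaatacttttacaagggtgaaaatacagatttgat
ECM16 (chrXIII:523446-523745, plus strand): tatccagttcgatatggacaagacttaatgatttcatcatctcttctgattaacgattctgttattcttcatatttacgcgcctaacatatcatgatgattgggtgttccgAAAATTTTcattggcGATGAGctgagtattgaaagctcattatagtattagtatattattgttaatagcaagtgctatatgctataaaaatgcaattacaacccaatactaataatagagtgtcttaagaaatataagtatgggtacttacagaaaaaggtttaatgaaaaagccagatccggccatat
NUG1 (chrV:162473-162772, plus strand): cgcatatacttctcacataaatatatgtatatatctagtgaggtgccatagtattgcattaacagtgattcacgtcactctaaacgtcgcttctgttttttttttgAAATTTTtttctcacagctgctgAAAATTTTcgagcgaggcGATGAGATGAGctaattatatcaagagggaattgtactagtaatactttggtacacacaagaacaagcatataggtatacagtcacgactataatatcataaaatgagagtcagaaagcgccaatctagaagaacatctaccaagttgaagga

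The 5 windows downstream of stop codons are of mRNAs that hold TGTANATA, the element of the RNA-binding protein Puf3, in capitals. RSM10, MRP49, MRPS8 and MHR1 encode mitochondrial ribosomal proteins, and COX17 encodes a copper chaperone for cytochrome oxidase, whose mRNA is a textbook Puf3 target. The element started 59 bases after the stop codon in RSM10, 25 in MRP49, 57 in MRPS8, 58 in MHR1 and 32 in COX17.
RSM10 (chrIV:540465-540488, plus strand): ttcgtactTGTAAATAaaataggt
MRP49 (chrXI:133681-133704, minus strand): tttgttcaTGTATATAtcaaaaaa
MRPS8 (chrXIII:572764-572787, plus strand): acggaccaTGTAAATAataatatt
MHR1 (chrIV:1055942-1055965, plus strand): taagctcaTGTAAATAgtgcaatg
COX17 (chrXII:131158-131181, minus strand): ccatttctTGTATATAtaagaata

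The Dcp2 degron libraries held 1067250 and 1967303 counted reads and the wild-type libraries 1857632 and 1751159, and pairs of values are given throughout in the order of replicates 1 and 2. Replicate 1 of the Dcp2 degron had at least 20 reads for each gene, while in the other 3 libraries 178 to 788 genes had fewer. A gene scarce in the wild type was therefore listed only if it had reads enough in that Dcp2 degron library. For lists with more genes higher than lower, the count among members with 20 or more reads in both wild-type libraries is given as well. Same-numbered libraries deviated together (correlation 0.804 for log2 level), and the labels do not say that replicates came from separate cultures. Cytoplasmic ribosomal protein mRNAs took 30.3% and 43.6% of the reads in the Dcp2 degron, against 39.5% and 54.2% in the wild type. The transcripts of the mating type a genes MFA1, MFA2, STE2, STE6, BAR1 and AGA2 were read in all 4 libraries.

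The mRNA of the tagged gene was examined first. DCP2 (YNL118C) stood at 22.8 and 22.7 CPM (read counts per library total after TMM scaling) in the Dcp2 degron, against 50.9 and 54.7 CPM in the wild type, from 37 and 45 reads in the Dcp2 degron against 99 and 68 reads in the wild type. The groups did not overlap. Its log2 change was -1.20 ± 0.22 (SE), with an adjusted p of 2.73e-04 in edgeR's quasi-likelihood test with the replicate number as a block, and of 0.258 without the block. Its median tail was longer, at 43.7 and 44 nucleotides (nt) in the Dcp2 degron, against 37.8 and 32.3 nt in the wild type. The DCP2 mRNA of the degron strain also carries the tag, so its reads and tails are set against those of an unlike transcript. What part the tag had in these differences was not tested. Because the degron acts on the Dcp2 protein, the mRNA does not show how far the enzyme was depleted.

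RNA levels shifted in both directions. Of 4909 genes, 866 (17.6%) rose and 968 (19.7%) fell in the Dcp2 degron at an adjusted p under 0.05 (edgeR, TMM scaling, replicate block), and the median change was near 0. Without the block edgeR called 0 genes in either direction, with 579 at an unadjusted p under 0.05. When libraries were scaled by their total counts instead, the median gene moved by 0.51 and the split became 2490 higher and 300 lower. Then 9 named genes called lower with TMM, GCN4, GPD1, LSM3, MES1, PDR5, POP2, SBP1, SIS1 and SSA2, had changes above 0, of at most 0.18. With upper-quartile scaling the counts were 1068 higher and 833 lower. Leaving out replicate 1 of the wild type left 424 higher and 466 lower, and leaving out its replicate 2 left 585 and 645. All changes below are relative to the median gene, and total mRNA per cell was not measured.

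HSP12 and RTC3 stood among the 10 largest increases in level. HSP12, a small membrane-protecting stress protein, had 374 and 754 CPM in the Dcp2 degron, against 13.4 and 23.3 CPM in the wild type. RTC3, a stress-induced protein of unknown biochemical role, had 722 and 1066 CPM in the Dcp2 degron, against 33.96 and 53.1 CPM in the wild type. Both Dcp2 degron libraries were far above both wild-type libraries for these genes, with log2 changes of 4.91 ± 0.18 and 4.37 ± 0.15 (SE; edgeR adjusted p = 5.99e-13 and 1.99e-13).

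PCK1, which encodes the gluconeogenic enzyme phosphoenolpyruvate carboxykinase, rose by 4.12 ± 0.54 on the log2 scale, on 53 and 45 reads in the Dcp2 degron against 4 and 1 in the wild type. PIR3, a cell wall glycoprotein, had 136 and 324 CPM in the Dcp2 degron and 16.98 and 29.8 CPM in the wild type, a log2 change of 3.25. YJL213W, BSC5, YNL143C and GPH1, the glycogen phosphorylase gene, completed the group of large increases, with log2 changes of 3.22, 2.80, 2.78 and 3.10. TAR1 and YLR154C-H had fitted changes of 7.63 and 4.78. Both lie within the ribosomal DNA, so reads from ribosomal RNA or from the other rDNA copies cannot be told apart from theirs.

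Among the largest decreases was MET6, the methionine synthase gene, with 12.3 and 11.1 CPM in the Dcp2 degron, against 90.04 and 27.4 CPM in the wild type (log2 change -2.25 ± 0.30), where replicate 1 was the highest of the 4. ARG1, of arginine synthesis, fell by 2.13 on the log2 scale. The G1 cyclin gene CLN2 had 14.8 and 10.1 CPM in the Dcp2 degron and 51.4 and 48.3 CPM in the wild type, and the Pho85 cyclin gene PCL1 had 15.4 and 18.2 CPM in the Dcp2 degron and 49.9 and 66.8 CPM in the wild type, so neither pair of groups overlapped. The other large decreases were ADE17 (purine synthesis, -1.96), HXT2 (glucose transport, -1.95), TIR1 (a cell wall mannoprotein, -1.81), POL30 (the replication clamp, -1.80), SCW10 (a cell wall protein, -1.76) and ZUO1 (a ribosome-associated chaperone, -1.74). In a bulk culture, fewer cells in a cell cycle stage and less RNA per cell cannot be told apart.

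**Figure D1:**
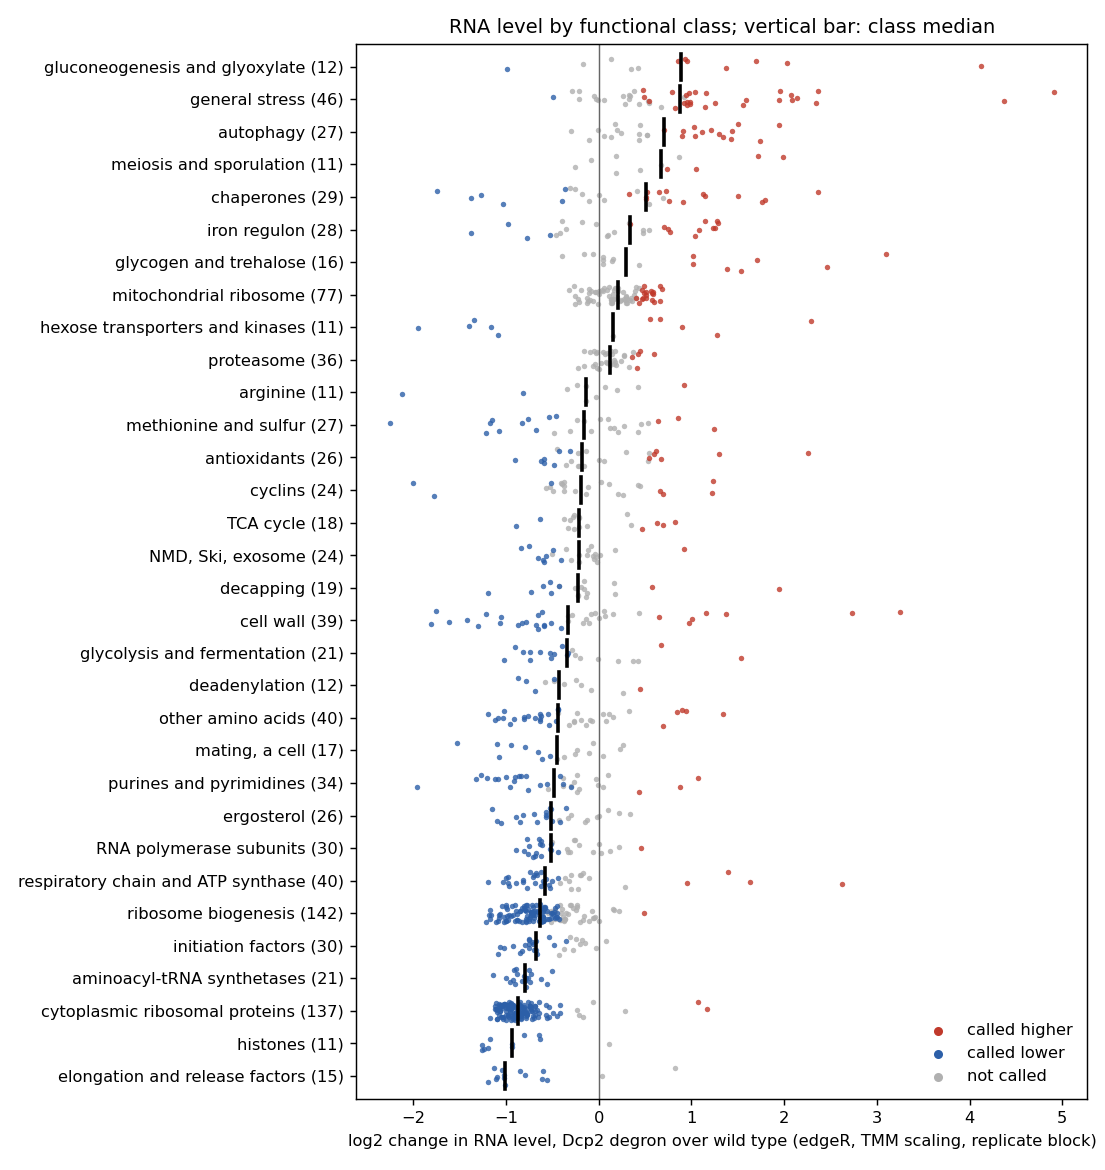
Log2 change in RNA level, Dcp2 degron minus wild type, for the members of each functional class, with classes ordered by their median. Points are genes (coloured where called by edgeR with the replicate block), bars are class medians, and the vertical line marks 0; general stress genes had a median of 0.87 and cytoplasmic ribosomal protein genes of -0.87.

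Most genes of the translation lists fell. Among cytoplasmic ribosomal protein genes, 130 of 137 fell and 2 rose, with a median log2 change of -0.87, beside 968 lower and 866 higher of 4909 for all genes. RPL9A had 1719.5 and 4033 CPM in the Dcp2 degron and 3945 and 8875 CPM in the wild type (log2 change -1.17). The groups overlapped, and within each replicate number the Dcp2 degron was lower. RPS7A and RPS10A changed by -1.09 and -1.07. The 2 exceptions were RPL22B, with 598 and 998 CPM in the Dcp2 degron against 254 and 462 CPM in the wild type, and RPL15B (1.07). RPL22B is an intron-containing paralog, and its change was 1.17 ± 0.12 without overlap of the groups. Paralogs of ribosomal proteins, like those of histones, can share reads.

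Of the 15 elongation and release factor genes, 13 fell and 0 rose (median -1.02). TEF1, which encodes the aminoacyl-tRNA carrier eEF1A, measured 5155 and 4491 CPM in the Dcp2 degron, against 11956 and 8049 CPM in the wild type, and the groups did not overlap. Its nearly identical copy TEF2 shares reads with it, so their split is uncertain. HYP2 (eIF5A, -1.19), EFT2 (the translocase eEF2, -1.13), EFB1 (the exchange factor of eEF1A, -1.10) and YEF3 (-1.04) moved alike. Initiation factors had 20 of 30 genes lower and 0 higher (median -0.67). They included TIF1 (-1.07) and TIF2 (-1.09), near-identical genes for the helicase eIF4A, the cap-binding protein gene CDC33 (-0.75), TIF4631 (-0.72) and TIF11 (-0.92).

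All 21 aminoacyl-tRNA synthetase genes fell, with a median of -0.80. DED81, the asparaginyl-tRNA synthetase gene, had 169.8 and 101 CPM in the Dcp2 degron against 400.3 and 209 CPM in the wild type, without overlap. GRS1 changed by -0.91 and MES1 by -0.50. Of 142 ribosome biogenesis genes, 104 fell (median -0.63) and only ESF1 rose (0.49). GAR1, a core protein of the pseudouridylation snoRNPs, changed by -1.17. ECM16 and NUG1, whose promoters are printed above, changed by -1.21 and -1.17. The RNA polymerase subunit genes had 17 of 30 lower and RPB4, a dissociable subunit of RNA polymerase II, higher (0.45). RET1 (-0.90) and RPA135 (-0.80), the second-largest subunits of RNA polymerases III and I, and RPB8 (-0.68), shared by all nuclear polymerases, were among those that fell.

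Chaperone genes moved in both directions. SSB1 and SSB2, the Hsp70 proteins that sit on the ribosome, ZUO1 and SSZ1, their cochaperones, fell by 1.38, 1.27, 1.74 and 1.03 on the log2 scale. SSB1 had 555 and 449.9 CPM in the Dcp2 degron, against 1608 and 1047 CPM in the wild type. HSP82, the inducible Hsp90, had 603 and 205 CPM in the Dcp2 degron, against 166 and 65.2 CPM in the wild type, and its change was 1.76 ± 0.15. HSP26, a small heat shock protein, had 22.8 and 64.2 CPM in the Dcp2 degron, against 7.72 and 8.05 CPM in the wild type. Both genes had non-overlapping groups. SSA4 (1.79), SSA1 (1.13), AHA1, which stimulates Hsp90 (1.51), and KAR2, the endoplasmic reticulum Hsp70 (0.76), rose too, whereas the constitutive SSA2 fell (-0.40). The near-identical pairs SSA1 and SSA2, HSP82 and HSC82, and SSB1 and SSB2 can share reads. In total 14 of 29 chaperone genes rose and 6 fell, and 13 rose and 6 fell of the 27 with 20 or more reads in both wild-type libraries. SSA3 (0.69 ± 0.30), HSP42 (0.54 ± 0.24) and SSE2 (0.41 ± 0.23), heat-inducible as well, did not pass the test, and the Hsp40 gene SIS1 fell (-0.36).

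Of 46 listed general stress genes, 27 rose and 1 fell (median 0.87). Among the 34 that had 20 or more reads in both wild-type libraries, 19 rose and 1 fell, beside 615 and 965 of 4074 genes so read. HOR7, a small membrane protein induced by stress, had 1573 and 3457 CPM in the Dcp2 degron against 685 and 1617 CPM in the wild type, so that the groups overlapped although each replicate number gave a higher Dcp2 degron value. STF2 (0.95), which stabilises the inhibited ATP synthase, rose, and GPD1, for glycerol synthesis, fell (-0.49). GCY1 and GAD1, a glycerol dehydrogenase and the glutamate decarboxylase, changed by 2.14 and 2.34. Known targets of the stress response were not raised without exception: CTT1, the cytosolic catalase gene, had 14.2 and 13.1 CPM in the Dcp2 degron and 7.203 and 12.1 CPM in the wild type, with an edgeR adjusted p of 0.289. DDR2 and HSP30 did not pass the test either, with changes of 0.29 ± 0.39 and 0.32 ± 0.18.

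Reserve carbohydrate genes rose in 7 of 16 cases and fell in 0. Of the 9 with 20 or more reads in both wild-type libraries, 2 rose. GSY2, the main glycogen synthase gene, had 73.5 and 52.6 CPM in the Dcp2 degron against 25.2 and 23.3 CPM in the wild type (log2 change 1.39 ± 0.21). The glycogen branching enzyme gene GLC3 (2.47), GSY1 (1.71), PGM2 (1.54), and the trehalose genes TSL1 (1.02) and NTH1 (1.02) also rose. TPS1, which makes trehalose 6-phosphate, had 127 and 115 CPM in the Dcp2 degron and 124 and 130.4 CPM in the wild type, and these groups overlapped.

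Hexose transport and hexokinase genes went both ways, with 5 of 11 higher and 5 lower (45.5% each, median 0.16). The shares of all genes were 17.6% and 19.7%. Of the 9 with 20 or more reads in both wild-type libraries, 3 rose and 5 fell (median -1.08). HXK1, a hexokinase expressed when glucose is scarce, had 72.2 and 47.01 CPM in the Dcp2 degron against 16.5 and 8.05 CPM in the wild type, while HXK2, the hexokinase of glucose-grown cells, had 406 and 248 CPM in the Dcp2 degron and 844 and 538 CPM in the wild type. The changes were 2.29 ± 0.24 and -1.08 ± 0.12. The glucokinase gene GLK1 rose (0.90). Among transporters, HXT1 (-1.35), HXT2, HXT3 (-1.16) and HXT4 (-1.40) fell, and the near-identical HXT6 and HXT7, which share reads, rose by 0.55 and 0.66. HXT8 rose by 1.28. Most glycolytic mRNAs were lower: 12 of 21 fell, among them PDC1, pyruvate decarboxylase (-0.82), CDC19, the main pyruvate kinase (-0.90), TDH3 (-0.63), whose paralogs can share its reads, and the acetaldehyde dehydrogenase gene ALD6 (-1.02). The minor isozyme genes PYK2 (1.53) and TDH1 (0.67) rose.

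Gluconeogenesis and glyoxylate genes had 7 of 12 listed members higher and MDH2 lower (-0.99), but 2 rose and 1 fell of the 6 with 20 or more reads in both wild-type libraries. CAT2, carnitine acetyltransferase, rose, with 29.6 and 43.5 CPM in the Dcp2 degron against 3.09 and 16.9 CPM in the wild type. GAL1, of galactose use, had 12.97 and 14.7 CPM in the Dcp2 degron and 2.57 and 2.42 CPM in the wild type, from 21 and 29 reads in the Dcp2 degron and 5 and 3 reads in the wild type.

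Respiratory chain and ATP synthase mRNAs fell in 25 of 40 cases and rose in 4 (median -0.58). ATP1 (-0.98), COX4 (-0.97) and QCR6 (-1.20) were among those that fell. CYC7 and COX5B, the isoforms known to be induced at low oxygen, rose, and CYC1 and COX5A, the aerobic isoforms, fell. CYC7 had 22.2 and 59.1 CPM in the Dcp2 degron against 3.09 and 10.5 CPM in the wild type, and CYC1 had 28.4 and 75.3 CPM in the Dcp2 degron against 57.6 and 159 CPM in the wild type. COX5B had 118 and 293 CPM in the Dcp2 degron against 34.99 and 99.8 CPM in the wild type, and COX5A had 55.6 and 64.2 CPM in the Dcp2 degron against 98.3 and 115 CPM in the wild type. Of these 4 genes, the groups overlapped for CYC1. The log2 changes were 2.62, -1.03, 1.63 and -0.82. In the tricarboxylic acid cycle list (median -0.21), 4 of 18 genes rose, a share near the 17.6% of all genes, among them IDH1 (0.83), IDH2 (0.70) and LSC2 (0.62), and 2 fell. Of its members, 4 rose and 2 fell of the 17 with 20 or more reads in both wild-type libraries.

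**Figure D2:**
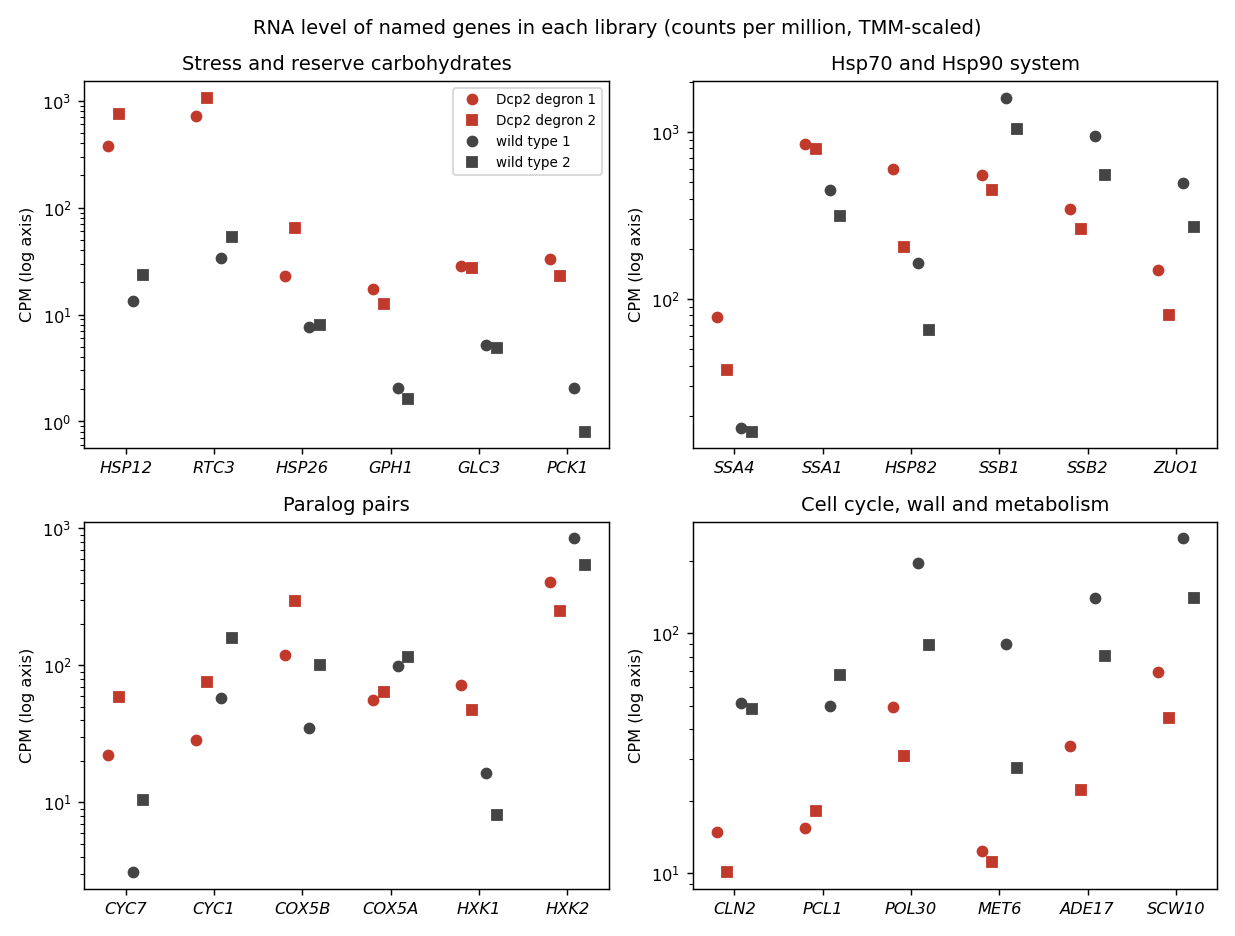
RNA level in CPM (log axis) of selected genes in each Dcp2 degron and wild-type library, with both replicates as separate points. HSP12, RTC3, HXK1 and CYC7 were higher in both Dcp2 degron libraries than in either wild-type library, and HXK2, CLN2 and SSB1 were lower.

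Mitochondrial ribosomal protein genes did not follow the cytoplasmic ones: 19 of 77 rose and 0 fell (19 of the 76 with 20 or more reads in both wild-type libraries), with a median of 0.21. RSM10 had 102 and 234 CPM in the Dcp2 degron, against 58.1 and 155 CPM in the wild type, with a change of 0.68 ± 0.16. The groups overlapped across replicates, and the Dcp2 degron was higher within each replicate number. MRP8 (0.58), a protein of unknown function that the list holds for its name, was among those that rose. MRPS8, MRP49 and MHR1 had changes of 0.66, 0.66 and 0.58. Of the 75 members with TGTANATA within 150 bases after the stop codon, 18 rose. Only 2 listed members lacked the element, so the list holds no contrast by it. Among the 615 other genes with the element, 122 rose (19.8%) and 67 fell (10.9%), with COX17 at 0.65 ± 0.14. Of the 4218 genes without it, 17.2% rose and 21.4% fell, so the share that rose was similar. The share of all genes with the element was 14.1%, and of mitochondrial ribosomal protein genes 97.4%.

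Autophagy genes rose in 14 of 27 listed cases and fell in 0, and in 6 of 13 with 20 or more reads in both wild-type libraries. ATG5, part of the conjugation enzyme for Atg8, had 102 and 242 CPM in the Dcp2 degron and 40.1 and 111 CPM in the wild type, overlapping across replicates and higher within each replicate number. ATG12, its partner, had 77.8 and 124 CPM in the Dcp2 degron, against 18.5 and 57.97 CPM in the wild type, without overlap. ATG31 (1.74), ATG29 (1.34), ATG16 (1.44), ATG36 (1.94) and ATG40 (1.43) rose as well. The ubiquitin-like ATG8 did not pass the test (0.43 ± 0.18). Proteasome genes rose in 5 of 36 cases and fell in 0, with SEM1 (0.59), RPN13 (0.45) and PUP3 (0.42) among those that rose, a smaller share than the 17.6% of all genes. All 36 had 20 or more reads in both wild-type libraries.

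Histone genes fell in 10 of 11 cases. HHT1 had 766 and 1855 CPM in the Dcp2 degron, against 1692 and 4809 CPM in the wild type, and changed by -1.26 ± 0.11. The groups overlapped across replicates, as replicate 2 was the higher one in both strains. HTB1 and HHF2 changed by -1.24 and -1.26, the variant HTZ1 by -0.65, and the centromeric histone gene CSE4 did not pass the test (0.12 ± 0.27). Of 24 cyclin genes, 4 rose (16.7%) and 3 fell (12.5%), shares below the 17.6% and 19.7% of all genes. Among the 21 with 20 or more reads in both wild-type libraries, 3 rose and 3 fell. CLB5 (1.23) and SSN8 (1.22) rose where CLN2 and PCL1 fell. Of 17 genes specific to mating type a or to the pheromone response, 8 fell and none rose. MFA1, for the a-factor pheromone, had 56.2 and 76.8 CPM in the Dcp2 degron against 228 and 158 CPM in the wild type, without overlap. GPA1 (-1.07), BAR1 (-1.10), STE6 (-0.80), AGA2 (-0.65) and STE2 (-0.61) also fell.

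In the membrane and envelope, 16 of 26 ergosterol genes fell and none rose, with ERG6 at -1.16, ERG1 at -1.10 and ERG11 at -1.05. Cell wall genes fell in 19 of 39 listed cases and rose in 7. CWP2, a major mannoprotein, had 825 and 545 CPM in the Dcp2 degron against 2781 and 1518 CPM in the wild type, and the glucanosyltransferase gene GAS1 changed by -1.42. PIR3 and the flocculin gene FLO9 (2.73) stood at the other end. Iron regulon genes rose in 11 of 28 cases and fell in 4 (median 0.33), but 6 rose and 4 fell of the 21 with 20 or more reads in both wild-type libraries (median 0.10). The siderophore-related FIT3 (1.23) and ARN1 (1.28), the reductase gene FRE2 (1.09), the heme oxygenase gene HMX1 (1.15) and TIS11, which encodes an mRNA decay factor of iron limitation (1.29), rose, while FET3 (-1.38), FTR1 (-0.78) and FRE1 (-0.97) fell.

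Amino acid and nucleotide synthesis lists leaned lower. In the methionine and sulfur list, 10 of 27 fell and 3 rose, with SAH1 at -1.22, SAM1 at -1.08 and MET1 at 1.24. In the purine and pyrimidine list 19 of 34 fell, GUA1 (-1.27) and ADE12 (-1.20) among them, and 3 rose, with URA10 at 1.07. Lysine, histidine, aromatic and branched-chain genes had 21 of 40 lower and 5 higher, with TRP1, described below among the strain alleles, the highest. Those that fell included ILV3 (-1.20), BAT1 (-1.02) and ARO2 (-0.91). Of 11 arginine genes, ARG1 and CAR1 (-0.82) fell and ARG5,6 (0.92) rose, while ARG8 did not pass the test (0.42 ± 0.21). Antioxidant genes went both ways, with 6 of 26 higher (23.1%) and 7 lower (26.9%), not far from the 17.6% and 19.7% of all genes. The peroxiredoxin gene TSA1 changed by -0.90 and its minor paralog TSA2 by 1.29, GPX1 by 2.25 and TRX1 by -0.59. Of 11 listed meiosis genes 4 rose, with REC104 at 1.98, SPO1 at 1.72, HOP1 at 1.05 and ZIP1 at 0.73, but 1 rose and 0 fell of the 3 with 20 or more reads in both wild-type libraries.

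The mRNAs of the decay machinery itself moved in both directions. Of 19 listed decapping genes, 6 fell, including DCP2, and 2 rose. DCP1, the activating subunit, had 35.2 and 77.8 CPM in the Dcp2 degron and 62.3 and 105 CPM in the wild type (log2 change -0.60 ± 0.17). PAT1 (-0.73), SBP1 (-0.51), LSM4 (-0.52) and LSM3 (-0.43) fell. XRN1 had 93.2 and 66.7 CPM in the Dcp2 degron and 110.1 and 70.04 CPM in the wild type, which overlapped (change -0.16 ± 0.16). DHH1, EDC2, EDC3, SCD6, PBY1, LSM1, LSM2, LSM5, LSM6 and LSM7 did not pass the test, with changes between -0.43 and 0.18. The scavenger gene DCS1, which hydrolyses the cap left by decay from the other end, rose (0.58). Its stress-induced paralog DCS2 had 25.3 and 31.3 CPM in the Dcp2 degron, against 6.17 and 8.86 CPM in the wild type.

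Among deadenylation genes CDC39 (-0.69), NOT3 (-0.87), POP2 (-0.48) and PAB1, the poly(A)-binding protein (-0.78), fell and CAF130 (0.44) rose. CDC36, CAF40, MOT2, NOT5, PBP1, PAN2 and PAN3 did not pass the test. In the list of nonsense-mediated decay, Ski and exosome genes, 8 of 24 fell, such as the exosome nuclease DIS3 (-0.83), its helicase MTR4 (-0.76) and MPP6 (-0.65). NMD4, a cofactor of Upf1, rose (0.92).

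mRNAs used as models of decapping-dependent or nonsense-mediated decay did not move as a group: 3 of 17 listed rose (17.6%) and 6 fell (35.3%). The shares of all genes were 17.6% and 19.7%. Of the 14 with 20 or more reads in both wild-type libraries, 1 rose and 6 fell. DAL7, whose mRNA is a known target of nonsense-mediated decay, had 46.9 and 56.6 CPM in the Dcp2 degron, against 9.78 and 24.2 CPM in the wild type. Its change of 1.69 ± 0.26 was the largest of the list after GAL1, which rose by 2.46. MFA2, the unstable mRNA on which deadenylation-dependent decapping was worked out, had 90.8 and 79.9 CPM in the Dcp2 degron and 204 and 127 CPM in the wild type, lower in both. PGK1, the stable counterpart, did not pass the test (-0.26 ± 0.11). RPS28B, whose mRNA is known to be decapped through Edc3, had 1212 and 1948 CPM in the Dcp2 degron and 1298 and 2283 CPM in the wild type, and the groups overlapped (change -0.17 ± 0.11). YRA1, whose unspliced form is decapped through Edc3, fell (-0.58), as did DBP2 (-0.95). The counts do not separate spliced from unspliced reads. RPL28 (-0.69), CTR2 (-0.55) and GCN4 (-0.34) also fell, and HAC1, ALR1, CPA1, SUC2 and PPR1 did not pass the test.

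Genes named for the strain differences were read as a check. TRP1, which the degron strain carries at the inserted construct, had 193 and 339 CPM in the Dcp2 degron and 67.4 and 148 CPM in the wild type, and rose by 1.34 ± 0.15. HIS3 had 67.9 and 65.2 CPM in the Dcp2 degron and 85.9 and 72.5 CPM in the wild type and did not pass the test, nor did TAO3 (-0.23 ± 0.23). LEU2, URA3, MET17 and RME1 were not analysed here.

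Codon usage and gene length also went with the level change. The codon measure was built from the cytoplasmic ribosomal protein list, in which 130 of 137 genes fell, so it is not separate from the lists. Divided into 5 groups of equal size by codon adaptation, measured as likeness to the codon usage of ribosomal protein genes and leaving those genes out, genes had median changes of 0.27, 0.17, 0.058, -0.085 and -0.41 from the lowest to the highest group. In the highest group 51.3% fell, against 4.61% in the lowest. Among genes with a mean of 50 or more reads the groups ran from 0.23 to -0.53. Codon adaptation rises with read depth and with class membership, whose part in this was not tested. Gene length showed a smaller range, from 0.13 in the shortest of 5 groups to -0.17 in the longest.

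Genes near chromosome ends were raised more often. Of 222 genes under 30 kb from an end, 87 rose and 17 fell (median 0.42), against 779 and 951 of 4686 farther in. Of the 148 under 30 kb with 20 or more reads in both wild-type libraries, 40 rose and 17 fell (median 0.16). This stands against 575 and 948 of 3925 so read farther in. Between 10 and 20 kb from an end 38 of 74 rose, and 18 of the 41 so read. With a mean of 50 or more reads over the 4 libraries, 39 rose and 16 fell of 135 genes under 30 kb, with a median of 0.16. These genes are often repeated between ends, and many have few wild-type reads. Genes known by a systematic name alone rose in 137 and fell in 36 of 446 cases (median 0.27). Of the 329 with 20 or more reads in both wild-type libraries, 87 rose and 36 fell (median 0.13). This stands beside 615 and 965 of 4074 genes so read.

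**Figure D3:**
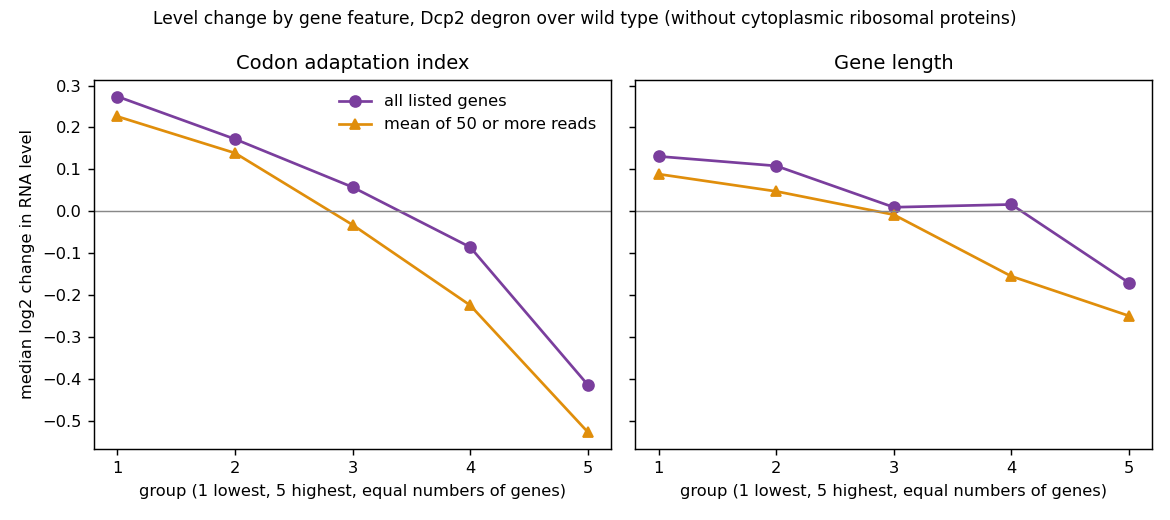
Median log2 change in RNA level, Dcp2 degron minus wild type, in 5 groups of equal size by codon adaptation (left) and by gene length (right), without cytoplasmic ribosomal protein genes, for all listed genes and for those with a mean of 50 or more reads. The median was 0.27 in the lowest and -0.41 in the highest group of codon adaptation.

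Promoter letters were counted over the window from 250 bases before to 50 after the coding start, on both strands. The stress element AGGGG was found in 60.9% of general stress promoters, 26.2% of promoters of genes that rose, 17.6% of those that fell and 21.3% of all promoters. In HSP12 it starts 232 and 190 bases before the coding start, and in RTC3 200 bases before it. AAAATTT was in 41.3% of promoters of genes that fell, 17.4% of those that rose and 25.02% of all. The ribosome biogenesis promoters held it in 94.4% of cases and GATGAG in 90.8%, against 20.6% of all promoters for that motif. Aminoacyl-tRNA synthetase promoters held AAAATTT in 80.95% of cases and elongation factor promoters in 73.3%. Cytoplasmic ribosomal protein promoters held AAAATTT in 29.9% and GATGAG in 10.9% of cases, near or below the share of all promoters. Respiratory chain promoters, whose genes mostly fell, held AGGGG in 47.5%.

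Tails were shorter in the Dcp2 degron in a large share of genes. For the median gene the tail was 31.5 and 38.8 nt in the Dcp2 degron, against 38.6 and 43.0 nt in the wild type, so that the groups overlapped by a narrow margin. The difference of -5.59 nt had a two-sided exact permutation p of 0.667, where 2 against 2 libraries cannot go below 0.333. The mean of the gene medians, weighted by reads, was 30.4 and 33.9 nt in the Dcp2 degron, against 34.6 and 35.6 nt in the wild type. Both Dcp2 degron libraries had shorter tails than both wild-type libraries in 1836 of 4054 genes (45.3%) and longer ones in 68 (1.68%). limma with the replicate block called 15 genes (0.37%), all shorter, and 0 longer, with 1269 genes at an unadjusted p under 0.05. Without the block it called 0. With each library centred on its own median gene, 877 genes were shorter and 887 longer, so the classes below are read beside the median of all genes. The limma count was 458 without replicate 1 of the Dcp2 degron, 2294 without its replicate 2 and 79 without replicate 2 of the wild type, where the lone library was assumed to vary like the others. Non-overlapping shorter tails numbered 3609 without replicate 2 of the Dcp2 degron and 3060 without replicate 1 of the wild type. Longer ones numbered 764 without replicate 1 of the Dcp2 degron, 110 without its replicate 2, and 146 and 286 without replicates 1 and 2 of the wild type. Leaving out a library can only keep or raise such a count, because fewer values have to lie apart.

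Tails and levels went apart by class. Of genes that rose and could be compared, 470 of 615 (76.4%) had non-overlapping shorter tails, against 245 of 956 (25.6%) of those that fell and 1121 of 2483 of the others. Counts and tails come from the same reads. By gene length the share with shorter tails ran from 67.3% in the shortest of 5 groups to 37.9% in the longest, where 5.17% were longer. By codon adaptation it ran from 57.03% in the lowest to 35.5% in the highest group.

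**Figure D4:**
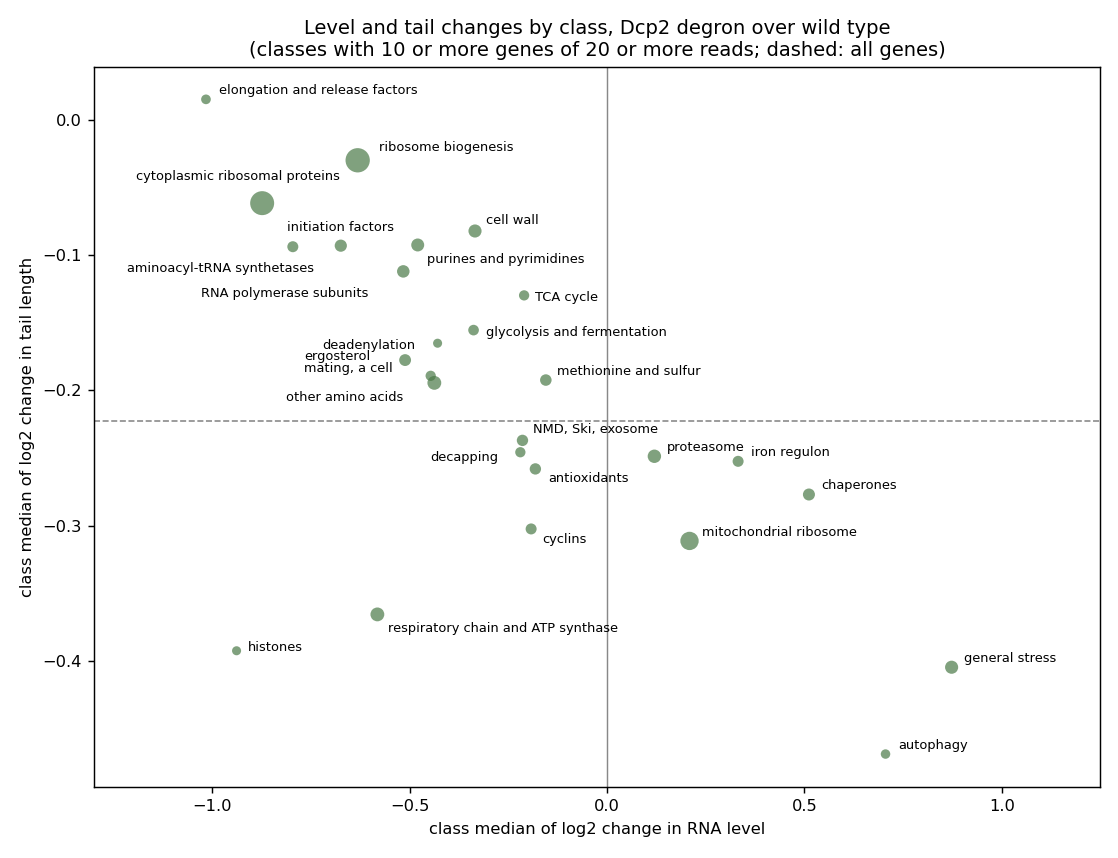
Median log2 change in poly(A) tail length against median log2 change in RNA level, Dcp2 degron minus wild type, one point for each class with 10 or more genes compared for tails, its area growing with their number. The vertical line marks 0 and the dashed line the tail median of all genes. General stress and autophagy genes lie at higher levels and shorter tails, ribosome biogenesis and elongation factor genes at lower levels with tail changes near 0, and histones at lower levels with shorter tails.

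General stress and autophagy mRNAs, which rose, had shorter tails. General stress genes had median tails of 31.5 and 39.4 nt in the Dcp2 degron, against 44.5 and 50.9 nt in the wild type, without overlap. Non-overlapping shorter tails were found in 21 of 34 (61.8%), beside 45.3% of all genes. Autophagy genes had 29.7 and 37.1 nt in the Dcp2 degron, against 39.97 and 46.3 nt in the wild type, with 10 of 13 shorter (76.9%). RTC3 had the largest tail decrease among genes with 50 or more reads in each library, with median tails of 17.3 and 23.2 nt in the Dcp2 degron, against 53.3 and 55.3 nt in the wild type (log2 change -1.44, limma adjusted p = 0.003395). HSP12, the other gene at the top of the level scale, had short tails in both strains: 22.1 and 23.2 nt in the Dcp2 degron, against 15.5 and 24.9 nt in the wild type. Its wild-type tails rest on few reads. Without replicate 1 of the wild type its log2 tail change fell below 0, to -0.11.

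The disaggregase mRNA HSP104 had 18.04 and 30.8 nt in the Dcp2 degron, against 53.1 and 56.8 nt in the wild type, with a modest rise in level (0.52). HOR7 had 23.2 and 27.4 nt in the Dcp2 degron, against 45.3 and 46.6 nt in the wild type. YBR085C-A had 22.2 and 28.3 nt in the Dcp2 degron, against 50.5 and 52.8 nt in the wild type, and SYM1, a mitochondrial membrane protein, 26.4 and 29.2 nt in the Dcp2 degron, against 55.6 and 59.4 nt in the wild type. All 4 were called by limma. PNC1 (-1.14), RRG7 (-0.98), OPI10 (-0.96), SNT309 (-0.90) and OXR1 (-0.89) had some of the largest differences among genes with 50 or more reads in each library, but did not pass limma's test after adjustment. In these genes replicate 1 of the Dcp2 degron was lower than replicate 2, and both lay below the wild type.

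The remaining called genes included RPS22B, an intron-containing ribosomal protein gene (23.1 and 24.1 nt in the Dcp2 degron, against 33.03 and 32.7 nt in the wild type), and genes that share sequence. HMLALPHA2, MATALPHA2, HMRA2, HMRA1, BUD5 and YCL068C lie at or beside the mating-type loci, which hold copies of each other, and CUP1-1 and CUP1-2 are tandem copies of the metallothionein gene. YCL068C had 23.5 and 23.6 nt in the Dcp2 degron, against 43.8 and 43.3 nt in the wild type, and CUP1-1 had 27.9 and 31.5 nt in the Dcp2 degron, against 42 and 44.6 nt in the wild type. YER138W-A completed the list. Reads of such copies cannot be assigned with certainty, so they do not count as separate genes.

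**Figure D5:**
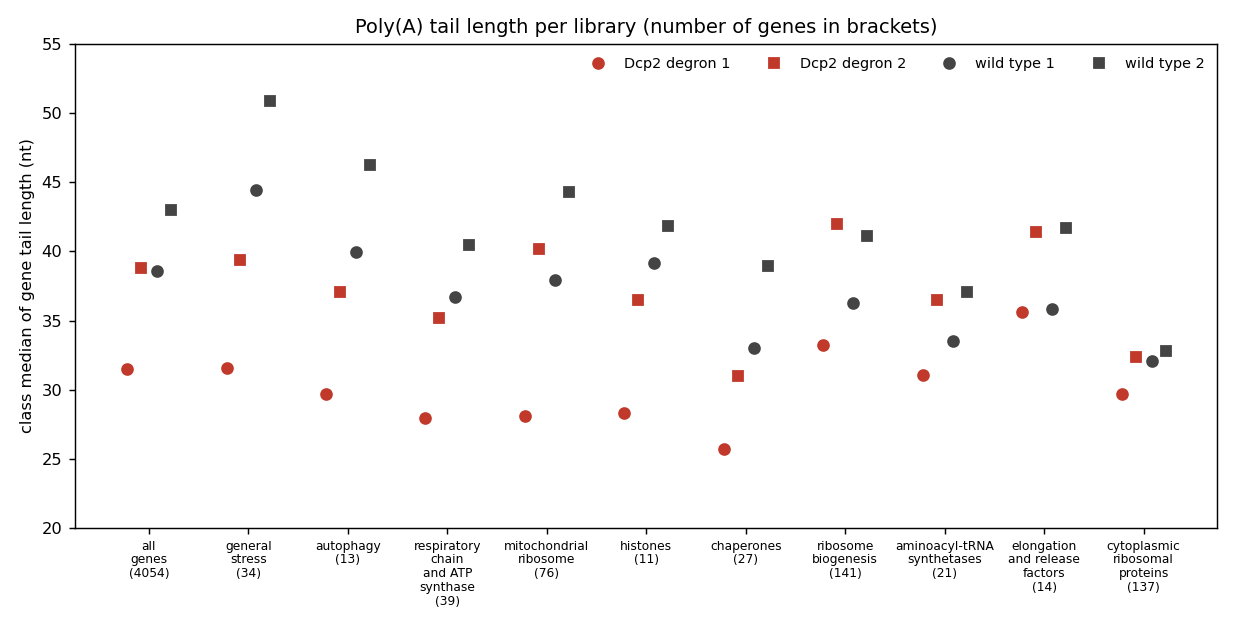
Median poly(A) tail length in nt of the members of each class in every Dcp2 degron and wild-type library, one point for each library. General stress genes measured 31.5 and 39.4 nt in the Dcp2 degron, against 44.5 and 50.9 nt in the wild type, and cytoplasmic ribosomal protein genes 29.7 and 32.4 nt in the Dcp2 degron, against 32.1 and 32.8 nt in the wild type.

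In the translation lists the median tail change was nearer 0 than that of all genes. Cytoplasmic ribosomal protein genes had median tails of 29.7 and 32.4 nt in the Dcp2 degron, against 32.1 and 32.8 nt in the wild type, with a median log2 change of -0.062, beside -0.22 for all genes. The median was 0.015 for elongation factors, -0.03 for ribosome biogenesis, -0.094 for aminoacyl-tRNA synthetases and -0.093 for initiation factors. Of 141 ribosome biogenesis genes, 10 had longer tails (7.09%) and 13 shorter ones (9.22%), beside 1.68% and 45.3% of all genes. Non-overlapping shorter tails were found in 53 of 137 cytoplasmic ribosomal protein genes, against 45.3% of all genes, and 1 had a longer one. They were found in 1 of 14 elongation factor, 3 of 21 aminoacyl-tRNA synthetase and 6 of 28 initiation factor genes.

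The 10 largest non-overlapping tail increases among genes with 50 or more reads in each library included 6 ribosome assembly mRNAs. MDN1, the giant ATPase of the large subunit pathway, had 43.01 and 45.4 nt in the Dcp2 degron, against 24.2 and 38.3 nt in the wild type. DBP10, an RNA helicase, had 41.3 and 46.8 nt in the Dcp2 degron, against 27.3 and 38.1 nt in the wild type. For these genes both Dcp2 degron libraries lay above both wild-type libraries, and replicate 1 of the wild type was the lowest. RRP5 (0.27), NOG1 (0.26), UTP22 (0.24) and ARX1 (0.23) belong to the same process, and NUP192 (0.36), ACO1 (0.36), PDR5 (0.31) and PHO3 (0.21) do not. limma called none of these increases after adjustment.

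Other classes did not tie the direction of level to that of tail. Histones fell in level and had shorter tails, with 7 of 11 non-overlapping (63.6%), beside 45.3% of all genes. Their class medians were 28.3 and 36.5 nt in the Dcp2 degron, against 39.2 and 41.8 nt in the wild type. Respiratory chain genes also combined lower levels with shorter tails, at 27.96 and 35.2 nt in the Dcp2 degron, against 36.7 and 40.5 nt in the wild type. Of these, 28 of 39 were shorter (71.8%). Mitochondrial ribosomal protein genes had 28.1 and 40.2 nt in the Dcp2 degron, against 37.9 and 44.3 nt in the wild type, which overlapped. HSP82 tails differed more between replicates than between strains of the same replicate number, at 12.8 and 27.6 nt in the Dcp2 degron, against 18.2 and 41.96 nt in the wild type.

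Against the Ccr4/Pop2 degron, which shares the construct and alleles of the Dcp2 strain, edgeR with the block called 1019 genes (20.8%) higher and 1292 (26.3%) lower in the Dcp2 degron, and 0 without the block. In Ccr4/Pop2 degron replicate 1 every count was a multiple of 4, so its counts may not be numbers of separate reads. The translation classes were lower here too: 130 of 137 cytoplasmic ribosomal protein genes and 103 of 142 ribosome biogenesis genes. General stress genes were higher in 21 and lower in 6 cases, and autophagy genes in 16 and 1. HSP12 was higher by 1.17 and RTC3 by 0.87. Chaperones and mitochondrial ribosomal protein genes were lower in 19 of 29 and 58 of 77 cases. HXK1 (-2.01), CYC7 (-0.95) and HSP82 (-1.63), which rose against the wild type, were lower than in the Ccr4/Pop2 degron. TRP1 was higher by 0.92, although the labels give both strains the same TRP1 construct. DCP2, tagged in the Dcp2 strain only, differed by -1.29. Tails were shorter in the Dcp2 degron in 3451 genes (85.1%) and longer in 1 (0.0247%; limma, replicate block).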

How the data were processed

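Direct RNA libraries (SQK-RNA002 kit) were made from 2 replicates each of the Dcp2 degron, the Ccr4/Pop2 degron and the wild type. Reads were processed with minimap2, SAMtools 1.9 and the sacCer3 genome, per the submitters' processing notes. How reads were assigned to genes, and whether strand was used, is not given in the sources used here. The authors deposited whole-number counts per gene. In Ccr4/Pop2 degron replicate 1, which entered the model, all counts were multiples of 4, so they may have been scaled before deposit. Dividing them by 4 gave 936 genes higher and 1011 lower in the Dcp2 degron than in the wild type. The other deposited value is the median poly(A) tail of a gene's reads, per the file headers. It is taken to be in nt, from nanopolish, after which the table is named. Every listed gene had a value in each of the 6 libraries. All of its per-library values could be assigned to a library, 0 were left out.

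Counts were tested with edgeR 4.0.16 (quasi-likelihood, TMM, filterByExpr, which removed 0 genes, all 6 libraries, group and replicate number as terms). Log2 tails were tested with limma 3.58.1 in the same design, for genes with 20 or more reads in the 4 libraries compared. Benjamini-Hochberg adjustment ran over all genes tested, with a threshold of 0.05. CPM values are TMM-scaled counts, and the columns for replicates 1 were matched by elimination against the labels. The replicate number was used as a block because same-numbered libraries deviated together in log2 CPM, with correlations of 0.804, 0.794 and 0.823 for the 3 pairs of groups. For log2 tails these were 0.257, 0.0666 and 0.151, so the pairing was weaker there. The labels do not say what a replicate number shares. Alternatives covered the block, scalings, DESeq2 1.42.0, filters, gene length, read minimums, the tail scale and each library left out. R was 4.3.3; tables and figures used Python 3.11.15, pandas 2.3.3, SciPy 1.17.1 and matplotlib 3.10.9, and sequences were read with Biopython 1.88 for 4908 of 4909 genes with RefSeq coordinates. There were 9 genes with counts identical to those of another gene.

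The comparison, the 34 gene lists and the tests were chosen with earlier results of these data known, so no list was given a p-value. Named genes were the 10 largest increases and decreases in level, up to 4 members per list (largest called increase and decrease, and the 2 others with the lowest adjusted p), all members of the decapping, deadenylation, decay model and strain lists, and the 10 largest non-overlapping tail decreases and increases with 50 or more reads. Chosen after their values were seen were AHA1, ARN1, ATG12, ATG16, ATG29, ATG40, ATP1, BUD5, CDC33, COX4, COX5A, CSE4, CTT1, CUP1-1, CUP1-2, CYC1, DDR2, EFT2, FLO9, FRE2, FTR1, GAD1, GAS1, GCY1, GLK1, GSY1, HMLALPHA2, HMRA1, HMRA2, HMX1, HOP1, HSC82, HSP30, HSP42, HTZ1, HXT3, HXT4, HXT6, HXT7, HXT8, KAR2, MATALPHA2, MES1, MHR1, MRP49, NTH1, PGM2, RPL15B, RPS22B, SIS1, SSA1, SSA2, SSA3, SSA4, SSB2, SSE2, SSZ1, SYM1, TDH1, TDH3, TEF2, TIF4631, TPS1, TSL1, YEF3 and YER138W-A.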

Additional observations from a re-analysis of the deposited data

How the results depend on the processing

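The level calls rested on the replicate number as a block. Without it edgeR called 0 genes higher and 0 lower (388 and 191 at an unadjusted p under 0.05), against 866 and 968, DCP2 kept its direction at -1.21 without passing the test, and limma called 0 tails. Of the 249 genes whose levels were examined one by one, 205 were no longer called and 43 stayed on the same side of the threshold. The contrast with the Ccr4/Pop2 degron, an alternative set chosen after seeing the data, gave 0 and 0 without the block. Total-count scaling gave 2490 higher and 300 lower, and 2016 higher and 473 lower against the Ccr4/Pop2 degron. It moved the median gene by 0.51, so that these changes in genes named here turned above 0: ALR1 0.22, CAF40 0.038, CPA1 0.38, DHH1 0.39, EDC3 0.083, GCN4 0.18, GPD1 0.027, HAC1 0.20, HIS3 0.28, HMRA1 0.44, HSC82 0.26, LSM1 0.36, LSM2 0.39, LSM3 0.085, LSM5 0.26, LSM7 0.29, MES1 0.017, MOT2 0.43, NOT5 0.14, NUP192 0.0095, PAN3 0.32, PBP1 0.27, PBY1 0.30, PDR5 0.0497, PGK1 0.26, POP2 0.034, RPS28B 0.36, SBP1 0.0092, SCD6 0.33, SIS1 0.16, SSA2 0.12, TAO3 0.29, TPS1 0.45 and XRN1 0.36. DESeq2 called 549 genes higher and 729 lower, and the remaining scalings, filters, library choices and the length correction left both counts within 1.5 times. The sign of the level change also turned for HMRA1 0.0011, MOT2 0.0102 and TPS1 0.016 with upper-quartile scaling, HMRA1 0.0027 and TPS1 0.0089 with a mean of 50 or more counts, CUP1-1 -0.20, CUP1-2 -0.20, LSM6 -0.029, TAO3 0.14 and XRN1 0.12 with the length correction, and for SUC2 -0.045, -0.023, -0.0021, -0.045 without the block, with 4 libraries, with median-of-ratios scaling and with DESeq2. None of these genes had been called. Leaving out 1 library at a time gave 424 to 962 genes higher and 466 to 1060 lower, with the fewest without replicate 1 of the wild type, and DCP2 at -1.34 to -1.07. Against the Ccr4/Pop2 degron the ranges were 718 to 1031 higher and 875 to 1212 lower. The difference of the median gene tail ranged over -9.24 to -1.95 nt, tails called by limma over 11 to 2294, shorter non-overlapping tails over 1917 to 3609 and longer ones over 110 to 764. Levels that changed sign in some of these fits, with their ranges, were CSE4 (-0.26 to 0.59), DHH1 (-0.32 to 0.37), EDC2 (-0.082 to 0.40), LSM2 (-0.29 to 0.061), PAN2 (-1.03 to 0.0092), PAN3 (-0.78 to 0.15), PBP1 (-0.49 to 0.075), PPR1 (-0.25 to 0.43), SCD6 (-0.38 to 0.099), SSE2 (-0.046 to 0.73), SUC2 (-0.33 to 0.12), TAO3 (-0.44 to 0.016), TPS1 (-0.26 to 0.10) and XRN1 (-0.28 to 0.0044), none of them called with all libraries. The change of the HSP12 tail ranged over -0.11 to 0.52, below 0 without replicate 1 of the wild type. Of the 249 genes examined one by one, 67 lost their call without replicate 1 of the wild type, 38 without its replicate 2, 35 without replicate 1 of the Dcp2 degron and 14 without its replicate 2. For tails, limma called 29 genes with 4 libraries, 26 with 50 or more reads and 591 on the nt scale. With 50 or more reads 1101 tails were shorter and 28 longer, of 2449 genes. With each library centred on its median 877 were shorter and 887 longer. Class medians relative to all genes changed sign mostly when 1 library was left out, the hexose transport list also with the mean of 50 or more counts, the gluconeogenesis tails also with 50 or more reads and the arginine tails also with 10 or more. The weighting by reads was run for the median gene only, as planned. Counts of non-overlapping tails can only stay or rise when a library is left out. The cause of the other shifts was not tested. Depth limits genes with few reads: 788 genes had under 20 in replicate 2 of the wild type.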
